A study of Mus musculus with 12 samples.

Results

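The regulators of the 2-cell-like state described here are 10 genes, listed by name for their known roles rather than by a threshold on these libraries, although earlier results of these data were known when the list was made. They comprise the activators Dppa2, Dppa4 and Dppa3 and the chromatin repressors Chaf1a, Chaf1b, Trim28, Setdb1, Kdm1a, Rif1 and Zmym2. All 10 were found among the 24480 genes of each table and all 10 passed the filter on low counts in both experiments. The question was whether a change in their mRNAs accompanies the shift of the Zscan4 genes when the transcriptional coactivator YAP is lowered or raised.

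Undifferentiated embryonic stem cells (ESCs) of the mouse line E14Tg2a were used, and RNA was sequenced from 4 groups of 3 libraries that the labels describe as independent biological replicates. In the knockdown experiment, cells were transiently transfected with siRNAs against Yap1 (YAP KD) or, as the control (CTR KD), with a scrambled siRNA. For the overexpression, a plasmid with the ubiquitous CAG promoter expressed mouse YAP (YAP OE). Its control plasmid (CTR OE) encoded GFP according to the labels and was empty according to the study's methods. All 4 groups thus share the line and a lipid transfection. The study's methods describe no stable YAP clone and no selection of transfected cells before the RNA was taken. Cells that took up no siRNA or plasmid may therefore have been sequenced with the others. Because whole cultures were sequenced, fewer cells in the 2-cell-like state and less RNA per such cell cannot be told apart.

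ESC cultures hold a small and changing fraction of cells that switch on genes of the 2-cell embryo, among them the Zscan4 family, the transcription factor Dux and the MERVL retroelements. Entry into this state is promoted by DPPA2 and DPPA4, paired DNA-binding proteins that act upstream of Dux. It is held back by several chromatin machines. CAF-1 deposits new histones behind the replication fork, TRIM28 and SETDB1 write heterochromatin over retroelements, KDM1A (LSD1) removes active marks from histone H3, RIF1 sets replication timing, and ZMYM2 bridges LSD1 complexes to chromatin. Loss of a repressor is known to raise the 2-cell program, and loss of DPPA2 or DPPA4 to lower it.

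The libraries held from 4.29e+07 to 5.72e+07 expected counts. The targeted gene moved as labelled: Yap1 was at 45.3% of the control in YAP KD and at 195% of the control in YAP OE, and no treated library overlapped its controls. The summed level of 7 ESC markers was between 3701 and 3975 CPM (counts relative to the library size, scaled by trimmed mean of M values) in every library. Within it Nanog and Zfp42 were lower in all YAP KD libraries than in all CTR KD libraries (log2 fold changes of -0.13 for both, edgeR adjusted p = 0.096 and 0.0997), while Pou5f1, the most abundant, was at 0.069 (0.462), and none of these was called. The sum of 6 primitive endoderm markers was 6.30 to 7.29 CPM in CTR KD against 6.71 to 8.45 CPM in YAP KD, and 6.08 to 7.43 CPM in CTR OE against 7.72 to 8.62 CPM in YAP OE. That of 6 fibroblast markers was 1.89 to 2.22 CPM in CTR KD against 2.43 to 3.18 CPM in YAP KD, and 2.49 to 3.11 CPM in CTR OE against 2.69 to 2.90 CPM in YAP OE. The sum of 6 trophoblast markers was 28.9 to 33.1 CPM in CTR KD against 33.4 to 33.7 CPM in YAP KD, and 43.7 to 49.4 CPM in CTR OE against 58.4 to 73.8 CPM in YAP OE, so it was higher in the YAP libraries of both experiments without overlap. The primitive endoderm sum did not overlap in the overexpression, nor the fibroblast sum in the knockdown. Krt18 made up most of the trophoblast sum. It was at 27.1 to 31.1 CPM in CTR KD against 31.4 to 32.3 CPM in YAP KD. In the overexpression it was at 41.2 to 47.7 CPM in CTR OE against 54.8 to 69.9 CPM in YAP OE. Eomes was at 1.08 to 1.62 CPM in CTR KD and 0.85 to 1.38 CPM in YAP KD. Of the primitive endoderm genes, Dab2 was at 2.27 to 2.90 CPM in CTR OE and 3.88 to 4.32 CPM in YAP OE. Gata4 was lower in YAP OE (1.44 to 1.55 CPM) than in CTR OE (1.67 to 1.96 CPM). A higher sum is thus no result about every gene of its list. The part of these markers in the results was not tested.

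CTR KD replicate 2 stood apart from the other CTR KD libraries in several of the regulators. Against the mean of those 2 libraries it was lower by log2 differences of -0.35 for Rif1 and -0.22 for Zmym2, and higher by 0.25 for Trim28, 0.16 for Kdm1a and 0.13 for Chaf1a. Rif1 and Zmym2 have the longest transcripts of the 10 (8502 and 6876 bases), whereas Trim28, Kdm1a and Chaf1a have lengths from 3015 to 3308 bases. The 4 shortest transcripts (818 to 1941 bases) deviated by -0.076 to 0.067, and Setdb1, at 4624 bases, by -0.0056. Whether length had a part in this was not tested. YAP KD replicate 1 deviated in the same directions from the other YAP KD libraries. Its log2 differences were -0.14 for Rif1, -0.067 for Zmym2, 0.14 for Trim28, 0.073 for Kdm1a and 0.068 for Chaf1a. Across genes, the deviations of these libraries from their group means correlated with r = 0.41. For these 5 regulators the log2 fold change in the knockdown is given with and without CTR KD replicate 2. YAP KD replicate 1 stays in both fits.

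The readout that the regulators are set beside is the sum of the 5 Zscan4 copies found in the tables. They are Zscan4a, Zscan4b, Zscan4c, Zscan4d and Zscan4f, similar copies of a gene family of the 2-cell embryo. Reads are divided between these copies, none of which had whole counts in any library, so the sum does not depend on how reads were split among the 5. In the knockdown the sum was 43.7, 35.8 and 37.9 CPM in CTR KD and 29.7, 29.9 and 30.1 CPM in YAP KD. The groups did not overlap, and the YAP KD libraries lay close together. The log2 fold change was -0.38 (SE 0.069, 95% interval -0.54 to -0.23, edgeR quasi-likelihood adjusted p = 0.0128). The call was lost without YAP KD replicate 1 (adjusted p = 0.0554), replicate 2 (0.0618) or replicate 3 (0.0507), although the log2 fold change stayed between -0.39 and -0.38 in these edgeR fits.

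In the overexpression the Zscan4 sum was 47.7, 45.0 and 37.9 CPM in CTR OE and 67.8, 63.0 and 58.2 CPM in YAP OE. All YAP OE libraries were above all CTR OE libraries. This gave a log2 fold change of 0.53 (SE 0.071, 95% interval 0.38 to 0.68, edgeR adjusted p = 0.00066). Subtracting the log2 fold change in the knockdown from that in the overexpression gave 0.92 (edgeR interaction test, adjusted p = 0.00016). The Zscan4 shift was read beside a 2-cell list that holds the Zscan4 copies and was written with earlier results of these data known. Of 23 genes of the list tested in the knockdown, 20 had a lower level in YAP KD and 4 were called (17.4%), all downregulated, against 2.78% of all 14606 genes called downregulated and 2.71% called upregulated. They were Zscan4a (log2 fold change -0.38), Zscan4f (-0.39) and the Eif1a-like copies Gm2022 (-0.38) and Gm5662 (-0.39). In the overexpression all 26 tested genes of the list had a higher level in YAP OE and 10 were called (38.5%), against 1.66% of all 14804 genes called upregulated. These were Zscan4b (0.52), Zscan4c (0.50), Zscan4d (0.70), Zscan4f (0.63), Usp17la (1.45), Usp17lb (1.04), Usp17le (1.24), Gm2022 (0.42), Gm4340 (0.61) and Gm6763 (0.49), and all of them share reads with another entry. The filter on low counts took both groups together, so a gene near its limit could pass through YAP OE alone. AF067061 had counts of 8 to 13 in CTR OE and 19 to 23 in YAP OE. The direction of all 26 is therefore no independent support for a wider shift. The number called in the knockdown was 2 without CTR KD replicate 1, 7 without replicate 2 and 1 without replicate 3, and 0 without any 1 of the YAP KD libraries, where 9 or 10 of the list had an unadjusted p under 0.05 in edgeR. In the overexpression it was 6 without CTR OE replicate 3. There the call of Gm2022 was lost with each of the 6 libraries left out and in 8 of 16 other fits in all, and those of Zscan4b and Gm4340 were each lost in 5 of 16. Dux was not analysed here.

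In the knockdown, 0 of the 10 regulators were called by the edgeR quasi-likelihood test at an adjusted p under 0.05, against 5.49% of all genes tested. At an unadjusted p under 0.05 there were 2 of 10, Dppa2 and Dppa3, against 19.6% of all genes. DESeq2 also called 0, with 1 at an unadjusted p under 0.05, and limma-voom called 0, with 2. In 3 of 10 (Dppa2, Dppa3 and Setdb1) the YAP KD libraries did not overlap the CTR KD libraries, against 25.7% of all genes. Of the 10, 7 had a higher and 3 a lower mean in YAP KD. The median of their log2 fold changes was 0.042, beside 0.0058 over all genes tested, and the median absolute value was 0.047, beside 0.085.

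In the overexpression, 0 of 10 were called by edgeR, against 2.13% of all genes, and 0 of 10 had an unadjusted p under 0.05, against 13.1% of all genes. DESeq2 and limma-voom each called 0, also with 0 at an unadjusted p under 0.05. For 1 of 10 (Dppa4) the groups did not overlap, against 18.2% of all genes. The median log2 fold change was -0.011, beside -0.0025 over all genes, and the median absolute value was 0.015, beside 0.064. The smallest edgeR adjusted p among the 10 was 0.711 here and 0.113 in the knockdown.

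**Figure D1:**
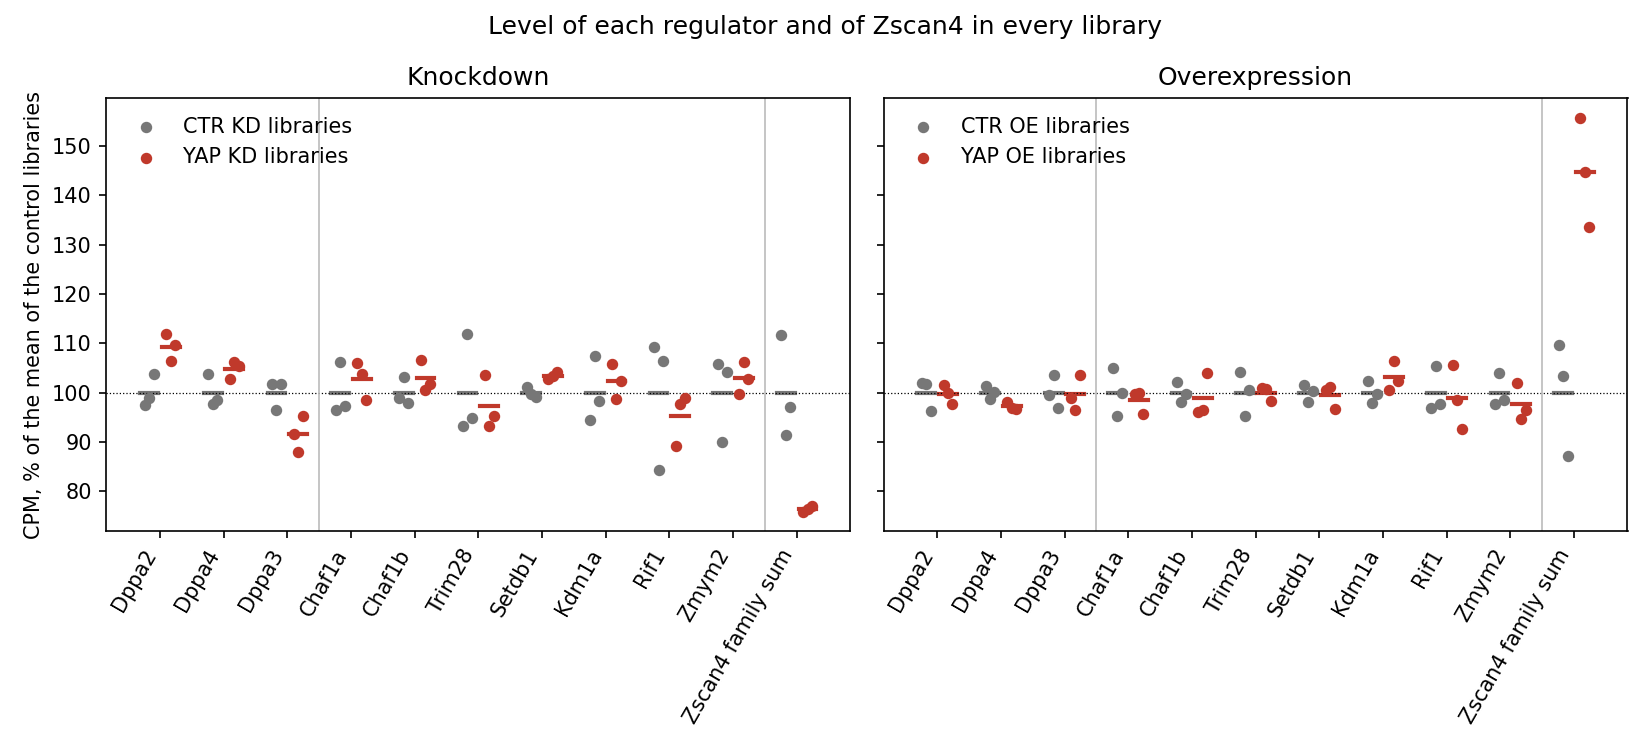
Level of the 10 regulators and of the Zscan4 family sum in each library, as a percentage of the mean of the 3 control libraries of the same experiment (points, single libraries; bars, group means; grey, control; red, YAP). In the overexpression the regulators of both groups lie near 100%, whereas the Zscan4 sum of YAP OE lies above all its controls, and in the knockdown Dppa2, Dppa3 and Setdb1 are the regulators whose groups do not overlap.

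Dppa2 and Dppa4 lie side by side on chromosome 16 of mm10 (48310274 to 48319513 and 48283735 to 48294292), 15981 bases apart. Dppa2 was at 109.5, 111.1 and 116.5 CPM in CTR KD and at 125.7, 119.5 and 123.1 CPM in YAP KD. Every YAP KD library exceeded every CTR KD library, by a small margin. The difference amounted to a log2 fold change of 0.13 (SE 0.042, 95% interval 0.037 to 0.22), with an unadjusted p of 0.011 and an edgeR adjusted p of 0.113. In the overexpression Dppa2 was at 110.4, 110.1 and 104.1 CPM in CTR OE and at 109.8, 108.1 and 105.7 CPM in YAP OE. These ranges lie within each other, and the log2 fold change was -0.0038 (SE 0.039, 95% interval -0.087 to 0.079). The sign in the knockdown is opposite to that of the Zscan4 sum, and the difference was not called. Whether Dppa2 had a part in the Zscan4 shift was not tested.

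Dppa4, the partner of Dppa2, was at 156.9, 147.8 and 149.1 CPM in CTR KD and at 155.5, 160.6 and 159.3 CPM in YAP KD. The groups overlapped through CTR KD replicate 1, and the log2 fold change was 0.069 (SE 0.041, 95% interval -0.023 to 0.16, edgeR adjusted p = 0.408). In the overexpression it was at 154.2, 150.2 and 152.2 CPM in CTR OE and at 149.4, 147.4 and 147.2 CPM in YAP OE. Here the groups did not overlap, with YAP OE the lower, but the log2 fold change was only -0.040 (SE 0.037, 95% interval -0.12 to 0.038, edgeR adjusted p = 0.722). Dppa4 thus had its higher mean in YAP KD and its lower mean in YAP OE, against the direction of Zscan4 in both experiments, and neither difference passed the test.

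Dppa3 (Stella), a maternal factor that protects DNA methylation in the zygote, lies on chromosome 6 (122626424 to 122630271). It had the lowest CPM of the 10, at 24.7, 23.4 and 24.7 CPM in CTR KD and 22.2, 21.3 and 23.1 CPM in YAP KD. The YAP KD libraries were all below the CTR KD libraries, with the highest of the former next to the lowest of the latter. On the log2 scale the fold change was -0.12 (SE 0.051, 95% interval -0.24 to -0.010), with an unadjusted p of 0.036 and an edgeR adjusted p of 0.209. In CTR OE the level was 21.7, 22.6 and 21.1 CPM and in YAP OE 21.6, 21.1 and 22.6 CPM. These groups overlapped throughout, and the log2 fold change was -0.0021 (SE 0.049, 95% interval -0.11 to 0.10).

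The genes next to the activators were read in the same fits. Gdf3, the gene beside Dppa3, which encodes a ligand of the TGF-β family expressed in ESCs, was called in the knockdown. Its level was 114.4 ± 3.43 CPM in CTR KD against 100.6 ± 3.06 CPM in YAP KD (mean ± SD, n = 3), giving a log2 fold change of -0.18 (edgeR SE 0.042, adjusted p = 0.034), and was at 0.055 in the overexpression (adjusted p = 0.596). The call in the knockdown was lost without CTR KD replicate 3 (log2 fold change -0.19) or YAP KD replicate 1 (-0.21), 2 (-0.17) or 3 (-0.18). Apobec1, on the same side of Dppa3 but farther, was at -0.14 and 0.013 and was not called. Morc1, beyond Dppa2, encodes a repressor of retroelements in germ cells. Its log2 fold change in the knockdown was 0.18 (SE 0.054, edgeR adjusted p = 0.102), and in the overexpression it was -0.021. Along this stretch of chromosome 16 the log2 fold changes in the knockdown were therefore 0.069 for Dppa4, 0.13 for Dppa2 and 0.18 for Morc1, and none was called. In 1 fit over 12 libraries Morc1 was called in the knockdown (log2 fold change 0.17, edgeR adjusted p = 0.0349). The noncoding gene Gm5485, which lies between Dppa2 and Morc1, did not pass the filter on low counts.

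CAF-1 is represented by its large subunit Chaf1a (chromosome 17, 56040416 to 56068026) and its middle subunit Chaf1b (chromosome 16, 93883900 to 93906115). Chaf1a was at 93.1 ± 5.08 CPM in CTR KD against 95.7 ± 3.62 CPM in YAP KD, and at 90.1 ± 4.42 CPM in CTR OE against 88.7 ± 2.17 CPM in YAP OE (n = 3 each). Chaf1b was at 69.8 ± 1.93 and 71.9 ± 2.24 CPM in the knockdown and at 69.4 ± 1.43 and 68.6 ± 3.13 CPM in the overexpression. For both subunits the difference between groups was smaller than the SD of the libraries in at least 1 of the groups compared. The log2 fold changes in the knockdown were 0.040 (95% interval -0.072 to 0.15) for Chaf1a and 0.044 (-0.051 to 0.14) for Chaf1b. Without CTR KD replicate 2 that of Chaf1a was 0.085 (edgeR adjusted p = 0.272). In the overexpression they were -0.021 (-0.11 to 0.068) and -0.016 (-0.10 to 0.072).

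Trim28 (chromosome 7, 13024152 to 13031032), the corepressor recruited by KRAB zinc finger proteins, was the most abundant of the regulators. It was at 1631, 1960 and 1663 CPM in CTR KD and at 1814, 1633 and 1667 CPM in YAP KD. The spread came from CTR KD replicate 2 and YAP KD replicate 1, while the other 4 libraries lay between 1631 and 1667 CPM. Trim28 had a log2 fold change of -0.037 (SE 0.071, 95% interval -0.20 to 0.12), and without CTR KD replicate 2 it was 0.051. In the overexpression Trim28 was at 1922, 1758 and 1855 CPM in CTR OE and at 1861, 1856 and 1812 CPM in YAP OE. There it was at a log2 fold change of -0.00067 (SE 0.049, 95% interval -0.11 to 0.10), and its sign was positive under upper-quartile factors and total counts.

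Setdb1 (chromosome 3, 95323525 to 95357202), the methyltransferase that works with TRIM28, was the repressor with the least spread. It was at 135.0, 133.0 and 132.1 CPM in CTR KD and at 136.9, 137.8 and 138.8 CPM in YAP KD. The groups did not overlap, and all 3 YAP KD libraries were higher. The log2 fold change was 0.050 (SE 0.037, 95% interval -0.033 to 0.13, edgeR adjusted p = 0.523). In the overexpression its level was 134.2 ± 2.38 CPM in CTR OE against 133.4 ± 3.17 CPM in YAP OE, with a log2 fold change of -0.0077 (95% interval -0.089 to 0.073). Its counts were not whole in any of the 12 libraries, so some of its reads are shared with another entry.

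Kdm1a (chromosome 4, 136550533 to 136602787), which encodes the demethylase LSD1, was at 231.4 ± 15.3 CPM in CTR KD against 236.7 ± 8.21 CPM in YAP KD. In the overexpression it was at 228.1 ± 5.01 and 235.2 ± 6.69 CPM, and it was the only one of the 10 with a higher mean in YAP OE, although Dppa2, Dppa3 and Trim28 also had a positive sign when libraries were scaled by upper-quartile factors or total counts. Its log2 fold changes were 0.035 (95% interval -0.083 to 0.15) and 0.045 (-0.041 to 0.13), and without CTR KD replicate 2 the former was 0.088 (edgeR adjusted p = 0.262). Zmym2 (chromosome 14, 56886529 to 56962358), a partner of the LSD1 complex, was at 130.0 ± 11.3 and 133.8 ± 4.18 CPM in the knockdown and at 131.2 ± 4.50 and 128.1 ± 4.98 CPM in the overexpression. Its log2 fold changes were 0.043 (95% interval -0.096 to 0.18) and -0.033 (-0.12 to 0.057), and without CTR KD replicate 2 the former was -0.028. Like Setdb1, Zmym2 had no whole count in any library.

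Rif1 (chromosome 2, 52072815 to 52126769), which guides protein phosphatase 1 to chromatin, had the widest interval of the 10. It was at 1021, 789 and 996 CPM in CTR KD and at 834, 913 and 924 CPM in YAP KD. The lowest library of the 6 was a control, CTR KD replicate 2. Rif1 had a log2 fold change of -0.069 (SE 0.089, 95% interval -0.27 to 0.13, edgeR adjusted p = 0.739). Without that library it was -0.18, with an edgeR adjusted p of 0.0575. In the overexpression Rif1 was at 946.9 ± 44.8 CPM in CTR OE against 936.8 ± 61.7 CPM in YAP OE, with a log2 fold change of -0.015 (95% interval -0.13 to 0.10).

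The intervals show which changes in the mean mRNA level of whole cultures these libraries leave possible. In the knockdown the 95% intervals of the 10 regulators, each taken for its gene alone, ran from -0.27 (Rif1) to 0.22 (Dppa2) on the log2 scale, or from 83.0% to 116.7% of the control. In the overexpression they ran from -0.13 (Rif1) to 0.13 (Kdm1a), or from 91.3% to 109.4%. All 10 intervals of the overexpression lay below the interval of the Zscan4 sum. In the knockdown 8 of 10 lay above it, and those of Dppa3 and Rif1 overlapped its upper end. These limits are set by the regulators with the widest intervals and are no detection limit for the others. Whether a regulator changed only in part of the cells, such as those expressing Zscan4 or those that were transfected, was not tested. Protein levels were not measured.

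**Figure D2:**
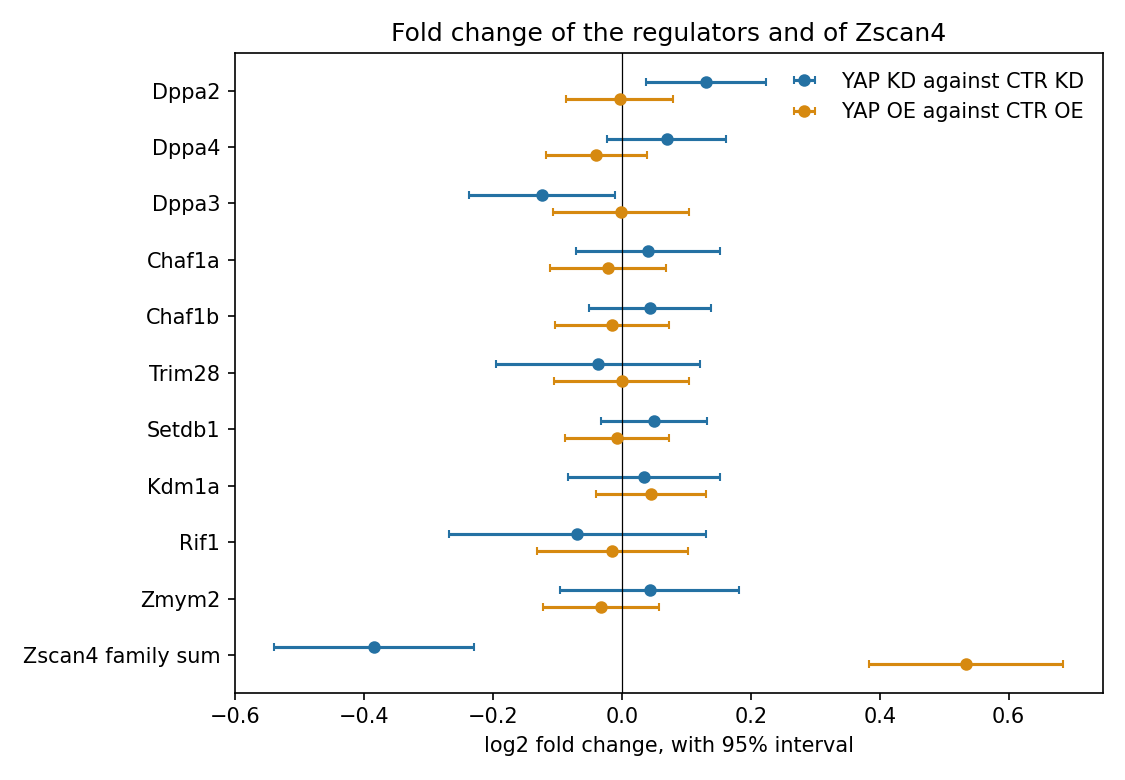
Log2 fold change of each regulator and of the Zscan4 family sum with its 95% interval from the edgeR fit (blue, YAP KD against CTR KD; orange, YAP OE against CTR OE; 3 libraries a group). The regulators stay between -0.13 and 0.13, and the Zscan4 sum is at -0.38 and 0.53.

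The difference between the experiments was tested for each regulator with an interaction term over all 12 libraries. By edgeR 0 of 10 were called, against 8.8% of 15049 genes tested, and 2 of 10 (Dppa2 and Dppa4) had an unadjusted p under 0.05, against 22.5% of all genes. DESeq2 and limma-voom each called 0 and had 2 at an unadjusted p under 0.05. The log2 fold change in the overexpression minus that in the knockdown was -0.13 for Dppa2 (SE 0.055, 95% interval -0.25 to -0.016, edgeR adjusted p = 0.159) and -0.11 for Dppa4 (SE 0.049, 95% interval -0.21 to -0.0027, adjusted p = 0.209). For Dppa3 it was 0.12 (SE 0.067, 95% interval -0.021 to 0.27, edgeR adjusted p = 0.308). Of the 3 activators, Dppa3 alone had a difference of the same sign as the Zscan4 sum. Among the 7 repressors the difference ran from -0.075 (Zmym2) to 0.056 (Rif1), with 3 positive and 4 negative. Whether these signs bear on the Zscan4 shift was not tested.

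The regulators were expressed at very different levels, compared here as CPM per kilobase of effective transcript length, averaged over the 12 libraries. Trim28 was highest at 582.6, followed by Dppa4 (113.6), Rif1 (111.4), Kdm1a (82.0), Dppa2 (63.9), Chaf1b (40.3), Dppa3 (35.1), Setdb1 (30.3), Chaf1a (29.3) and Zmym2 (19.5). Dppa4 was above Rif1 in 7 of 12 libraries and Setdb1 above Chaf1a in 10 of 12, so these neighbours in the order could not be separated. All other neighbours kept their order in 12 of 12 libraries. The mean transcript length, which RSEM derives from its estimate of isoform use, varied for Dppa4 and Setdb1 only. For Dppa4 it was 1518.8 ± 1.31 bases in CTR OE against 1516.3 ± 1.48 bases in YAP OE, and 1519.6 ± 0.219 bases in CTR KD against 1520.4 ± 2.35 bases in YAP KD, and for Setdb1 the group means lay between 4623.2 and 4624.7 bases.

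**Figure D3:**
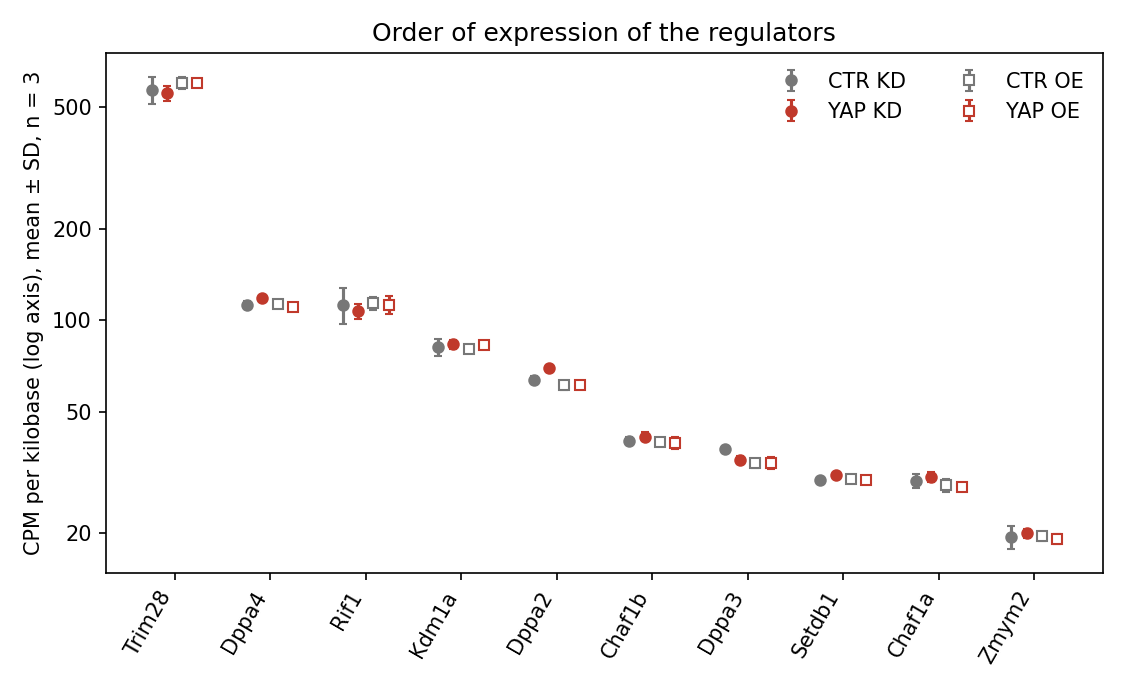
Level of each regulator in CPM per kilobase on a log axis, as the mean ± SD of 3 libraries in each group (filled circles, knockdown experiment; open squares, overexpression experiment; grey, control; red, YAP). The 4 groups of each gene lie together, and the order from Trim28 to Zmym2 spans the range from 582.6 to 19.5.

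The promoters of 6 of the repressors and of 4 Zscan4 copies differ in base composition, which is shown because YAP acts through TEAD factors and the study concerned DNA methylation. RefSeq windows on GRCm38.p6 (the build of mm10), each from 250 bases before to 50 bases after a transcription start, were matched for 6 of the 10 (Chaf1a, Chaf1b, Trim28, Setdb1, Kdm1a and Zmym2, the last with 2 starts). Dppa2, Dppa4, Dppa3 and Rif1 are named only. The 7 windows held 15 (Setdb1) to 34 (Zmym2) CG dinucleotides, beside a median of 7 over all 32851 windows, and 4 windows of Zscan4b, Zscan4c, Zscan4d and Zscan4f held 1 to 4. Of all windows, 34.6% held at least 15, so such counts are common. The TEAD motif GGAATG, searched on both strands, was in 2 of the 7 windows (Chaf1b and the upstream start of Zmym2), in 0 of the 4 Zscan4 windows and in 14.7% of all windows. These are matches of letters in a short window, not sites of binding. The pair of windows with a match and that of Zscan4f are printed 5′ to 3′ on the strand of the gene, the plus strand for all 3, with the motif in capitals (CATTCC is GGAATG read on the other strand).
Chaf1b, chr16:93883651-93883950: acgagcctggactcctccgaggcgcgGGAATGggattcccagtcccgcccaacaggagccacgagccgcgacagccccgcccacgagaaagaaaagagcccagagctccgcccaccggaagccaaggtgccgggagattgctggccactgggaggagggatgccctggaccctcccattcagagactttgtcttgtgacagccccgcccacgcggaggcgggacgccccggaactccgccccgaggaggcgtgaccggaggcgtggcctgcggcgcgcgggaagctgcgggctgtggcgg
Zmym2, chr14:56886353-56886652: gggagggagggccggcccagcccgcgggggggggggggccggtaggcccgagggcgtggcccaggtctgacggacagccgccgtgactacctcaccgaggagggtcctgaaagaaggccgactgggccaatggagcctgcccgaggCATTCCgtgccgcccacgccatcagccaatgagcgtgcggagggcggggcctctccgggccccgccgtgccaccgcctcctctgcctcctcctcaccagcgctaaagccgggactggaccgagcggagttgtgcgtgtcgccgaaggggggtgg
Zscan4f, chr7:11397665-11397964: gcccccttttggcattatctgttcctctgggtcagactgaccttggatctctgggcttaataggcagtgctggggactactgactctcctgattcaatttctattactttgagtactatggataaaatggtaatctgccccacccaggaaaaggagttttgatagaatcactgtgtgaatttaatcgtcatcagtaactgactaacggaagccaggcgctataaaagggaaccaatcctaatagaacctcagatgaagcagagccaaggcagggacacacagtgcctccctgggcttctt

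Neither gene with a match was called. Chaf1b and Zmym2 had log2 fold changes of 0.044 and 0.043 in YAP KD and of -0.016 and -0.033 in YAP OE, as given above. Zscan4f, without a match, had -0.39 and 0.63. Sites outside these windows were not searched, and the part of the motif in these values was not tested.

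The complexes in which the regulators work were read through 63 further genes, all of which passed the filter. In the knockdown 3 of 63 were called (4.76%, against 5.49% of all genes), all upregulated, and 10 of 63 had an unadjusted p under 0.05, against 19.6% of all genes. The median log2 fold change of the 63 was 0.038. Zmym1, a relative of Zmym2, was at 94.3 ± 5.90 CPM in CTR KD against 111.0 ± 2.39 CPM in YAP KD, giving a log2 fold change of 0.24 (edgeR SE 0.051, adjusted p = 0.028). Sumo3, which encodes one of the SUMO modifiers, had a log2 fold change of 0.19 (edgeR adjusted p = 0.031). Ppp1cc, a catalytic subunit of the phosphatase that RIF1 binds, had one of 0.16 (edgeR adjusted p = 0.043). Without CTR KD replicate 2, 5 of the 63 were called by edgeR, without CTR KD replicate 1 there was 1, and without CTR KD replicate 3 or any 1 of the YAP KD libraries 0 were called, with 8 to 12 at an unadjusted p under 0.05.

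In the overexpression 0 of 63 partner genes were called by edgeR, DESeq2 or limma-voom, and 5, 4 and 5 had an unadjusted p under 0.05. Of all genes, edgeR called 2.13% and 13.1% had an unadjusted p under 0.05, so the absence of calls among 63 genes is near the background. Without YAP OE replicate 2 there were 2 calls and without replicate 3 there was 1. Zmym1 was at -0.052, Sumo3 at -0.059 and Ppp1cc at 0.0060 on the log2 scale. The differences between the experiments were called for 4 of 63 (6.35%, against 8.8% of all genes). They were those of Zmym1 (-0.29), Sumo3 (-0.25), the replication clamp Pcna (-0.20) and the PRC1.6 subunit E2f6 (0.28). That of Pcna was called in only 7 of 21 other fits.

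The counts by complex are read against the shares over all genes, which were 5.49% called and 19.6% at an unadjusted p under 0.05 in the knockdown, and 2.13% and 13.1% in the overexpression. The CAF-1 partners and histone chaperones had 0 of 9 called by edgeR in each experiment, with 2 and 1 at an unadjusted p under 0.05. The most abundant of them was Rbbp4, a histone-binding subunit shared with other complexes, at 0.098 in YAP KD and -0.0049 in YAP OE on the log2 scale, and its counts were not whole in any library. Pcna was at 0.100 and -0.097. Of 14 heterochromatin genes that work with TRIM28 and SETDB1, 0 were called in either experiment, with 1 and 0 at an unadjusted p under 0.05. The HP1 gene Cbx5, the most abundant of them, was at -0.036 and 0.052. The LSD1 and CoREST group also had 0 of 9 called in each experiment, with 1 and 2 at an unadjusted p under 0.05 and its most abundant gene, the deacetylase Hdac2, at 0.050 and 0.021.

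Of the other groups, PRC1.6 had 0 of 8 called in either experiment, with 1 at an unadjusted p under 0.05 in each and its scaffold Mga, the most abundant, at 0.0075 in YAP KD and 0.0016 in YAP OE. E2f6 was at -0.14 in YAP KD and 0.14 in YAP OE. TIP60-p400 had 0 of 4, also at an unadjusted p under 0.05, led by Ep400, a remodeling ATPase, at 0.048 and -0.079. In the ZMYM family, the SUMO pathway and the RIF1 phosphatase, 1 of 5, 1 of 7 and 1 of 3 genes were called in the knockdown, those named above, and 0 in the overexpression, against 5.49% and 2.13% of all genes. In groups of this size a single call is no result about the group. A last group of modulators had 0 of 4 called in either experiment, with 1 at an unadjusted p under 0.05 in each. In it the most abundant gene, Ncl, which encodes the nucleolar protein nucleolin, was at -0.082 and 0.23. Without YAP OE replicate 3 the latter was 0.36 and called (edgeR adjusted p = 0.0014). Lin28a, of the same group, was at 305.7 ± 9.14 CPM in CTR KD against 273.9 ± 12.1 CPM in YAP KD, without overlap. In CTR OE it was at 314.5 ± 10.6 CPM against 320.9 ± 3.98 CPM in YAP OE. Lin28a was not called here, whereas the study reported a significant, slight decrease in its own analysis of the knockdown.

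**Figure D4:**
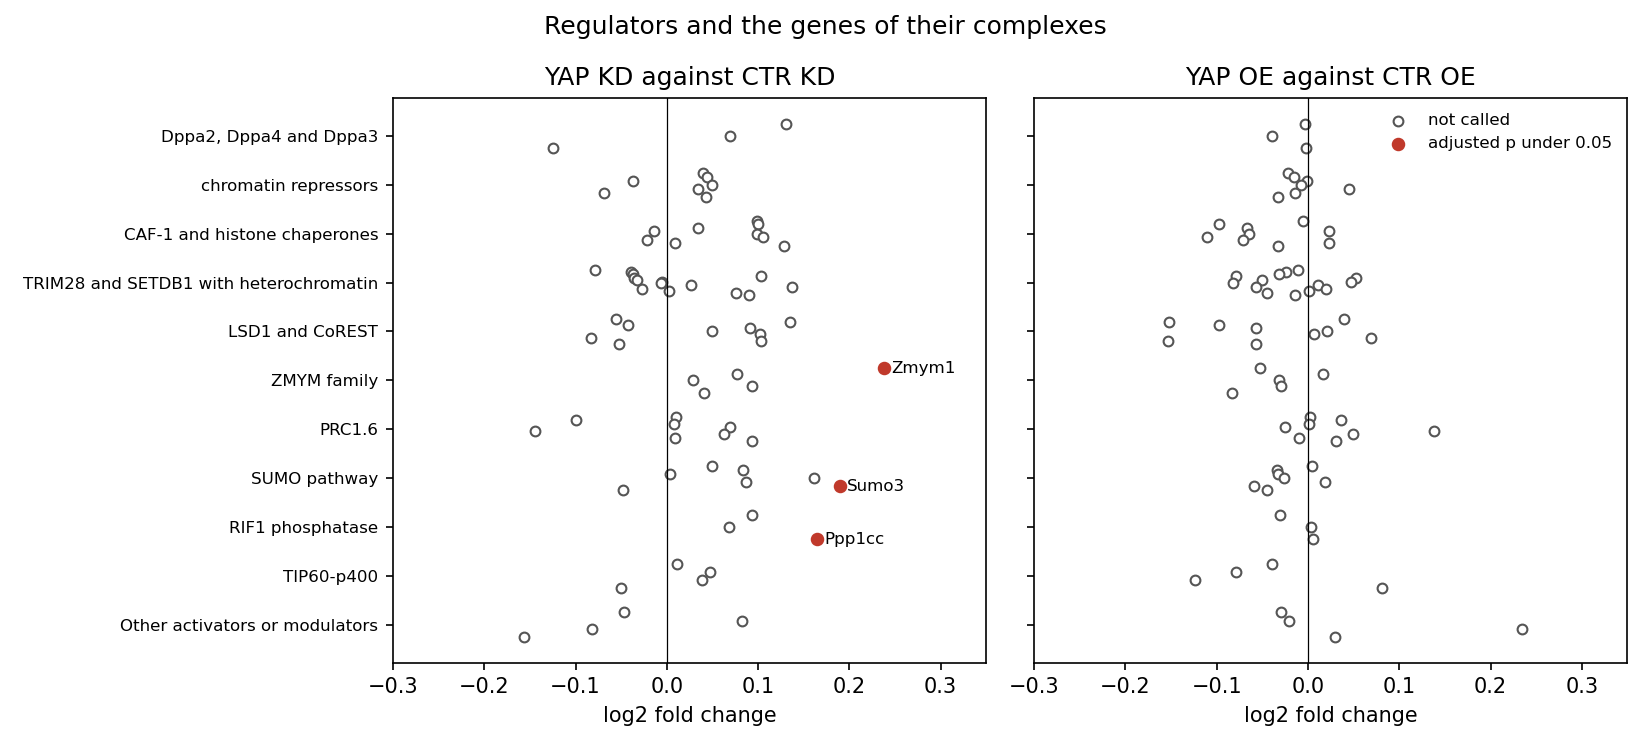
Log2 fold change of the 10 regulators (top 2 rows) and of 63 partner genes by complex in the knockdown (left) and the overexpression (right). Each point is a gene, and the filled points, Zmym1, Sumo3 and Ppp1cc in the knockdown, are those with an edgeR adjusted p under 0.05.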

How the data were processed

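RNA of 12 mouse ESC libraries was sequenced. Per the study's methods and the submitters' processing notes, the authors used STAR for alignment to mm10 and RSEM for quantification over curated RefSeq genes. Tool versions and a strand setting are not given in the sources used here. The deposited expected counts are estimates per gene that need not be whole, since reads matching several entries are divided between them. The TPM and FPKM values that the authors also deposited, scaled by length and library, stayed out of the results.

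After rounding of the expected counts, the 6 libraries of an experiment entered 1 edgeR fit (edgeR 4.0.16, R 4.3.3; filterByExpr, TMM factors, quasi-likelihood F test, two-sided, Benjamini-Hochberg adjustment over all genes kept). Genes with an adjusted p under 0.05 were called. The SE is the absolute log2 fold change divided by the square root of F, and 95% intervals use the total (residual plus prior) degrees of freedom of the fit. P-values and intervals measure only the spread between these libraries. An interaction term over 12 libraries tested the difference between the experiments. The Zscan4 sum replaced its copies in a table of its own. Every regulator had 921 or more counts in every library. The counts were lowest for Dppa3 (921 to 1270), and the part of counting error in its spread was not measured. The edgeR fit was also run on simulated counts, whose changed genes had log2 fold changes larger than those of the regulators. These simulations do not show how often changes of the regulators' size would be called. Alternatives were limma-voom (limma 3.58.1), DESeq2 1.42.0, other scaling factors and filters, 1 fit over 12 libraries, removal of entries under 200 bases, the replicate number as a block, and leaving out each library. Other Zscan4 entries were not analysed here.

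The regulators, the partner and 2-cell lists and the tests were chosen with earlier results of these data known. All regulators, the Zscan4 copies, every called gene of the lists, at most 3 (here the single most abundant) genes of each complex without a call, genes called for a difference between the experiments and the neighbours of the activators are named. Outside this rule, Nanog, Zfp42, Pou5f1, Krt18, Eomes, Dab2, Gata4, Lin28a and AF067061 were chosen after their values were seen. No regulator was called, so no genes of like profile were sought.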

Additional observations from a re-analysis of the deposited data

Results flagged for a closer look

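For each of the following the log2 fold change in the overexpression minus that in the knockdown passed the edgeR interaction test over 12 libraries. No regulator is among them. Yap1, the targeted gene, had a difference of 2.11, and the Zscan4 family sum one of 0.92, with 0.71 for Zscan4a, 1.01 for Zscan4b, 0.85 for Zscan4c, 1.08 for Zscan4d and 1.02 for Zscan4f. Other genes of the 2-cell list were Usp17la (1.66), Usp17ld (1.2, called in 7 of 20 other fits), Usp17le (1.35), Gm2022 (0.80), Gm5662 (0.59), Gm8300 (0.68) and Gm6763 (0.84), all of which share reads with another entry. Among genes of the regulators' complexes the differences were -0.29 for Zmym1, -0.25 for Sumo3, -0.20 for Pcna (edgeR adjusted p = 0.0496, called in 7 of 21 other fits) and 0.28 for E2f6. Gdf3, the neighbour of Dppa3, had a difference of 0.24 (edgeR adjusted p = 0.0106), whereas Dppa3 itself, at 0.12, was not called.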

How the results depend on the processing

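No regulator was called in either experiment or for the difference between them under any alternative or with any library left out (530 fits in all, lowest adjusted p 0.0537, for Dppa2 in YAP KD). Signs of small values turned. In YAP OE the log2 fold changes of Dppa2, Dppa3, Trim28 and Rbbp4 were 0.0015, 0.0032, 0.0046 and 0.00036 under upper-quartile factors and 0.0039, 0.0040, 0.0069 and 0.0021 under total counts. Trim28 was at 0.00048 in limma-voom. Mga in YAP OE was at -0.0015 under relative log expression factors and in DESeq2, and at -0.00096 without a filter beyond 1 count. In YAP KD it was at -0.0036 under upper-quartile factors and -0.0016 without the filter. With 1 library left out, the values that turned in YAP KD ranged from -0.091 to 0.051 for Trim28, -0.0099 to 0.088 for Kdm1a, -0.028 to 0.081 for Zmym2 and -0.062 to 0.050 for Mga. In YAP OE the ranges were -0.032 to 0.0099 for Dppa2, -0.036 to 0.021 for Dppa3, -0.059 to 0.014 for Chaf1a, -0.059 to 0.0049 for Chaf1b, -0.037 to 0.029 for Trim28, -0.024 to 0.0076 for Setdb1 and -0.065 to 0.026 for Rif1. For other genes they were -0.0070 to 0.021 for Ppp1cc, -0.030 to 0.021 for Rbbp4, -0.0080 to 0.040 for Hdac2, -0.029 to 0.035 for Mga, -0.052 to 0.0021 for Morc1 and -0.040 to 0.11 for Apobec1. Differences between the experiments ranged from -0.053 to 0.087 for Trim28, -0.044 to 0.052 for Kdm1a and -0.011 to 0.16 for Rif1. The causes were not tested.

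In YAP KD the 2-cell genes called numbered 2 under total counts, 7 without a filter beyond 1 count and 0 to 7 with 1 library left out, and the partner genes 5 in 1 fit over 12 libraries and 0 to 5 with 1 library left out. In YAP OE the partner genes called numbered 2 without the filter and 0 to 2 with 1 library left out, and the 2-cell genes 6 to 10. The Zscan4 sum ranged from -0.45 to -0.30 in YAP KD and from 0.44 to 0.60 in YAP OE with 1 library left out, always in the same direction.

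The main fits did not pair libraries by replicate number. Deviations from the group means of same-numbered libraries correlated across genes with r = -0.39, -0.28 and 0.031 in the knockdown and 0.042, 0.075 and -0.026 in the overexpression, and not every library correlated best with its own number. The highest r was 0.41, for CTR KD replicate 2 with YAP KD replicate 1. Deviations within a group of 3 libraries are bound to each other, so these values cannot decide whether libraries were paired. With the number as a block, 193 genes were called in YAP KD (802 without it) and 280 in YAP OE (316 without it). Under the block 0 partner genes and 0 2-cell genes were called in YAP KD, with 6 and 9 at an unadjusted p under 0.05, the Zscan4 sum was at -0.38 (adjusted p = 0.0585), and Trim28 in YAP OE was at 0.00014.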
